A study of Homo sapiens with 12 samples.

Results

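Pseudouridine synthases are the enzymes that turn uridine into pseudouridine within RNA. The 10 genes described here encode synthases that work without a guide RNA: PUS1, PUS3, PUS7, PUS7L, PUS10, TRUB1, TRUB2, RPUSD1, RPUSD2 and RPUSD4. They were chosen by name, as the rows of the deposited count table whose Ensembl identifier maps to these symbols, and all 10 were found among 63152 genes. The rule has no threshold on a measured value, but the family was selected on earlier results of these same libraries. Its values are therefore given as a description, with an interval for each difference and no p-value for a member. All 10 passed the filter on low counts, which kept 16839 genes for testing.

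Poly-A RNA was sequenced from cultures labelled HepG2, a human hepatoblastoma line, in 3 groups of 4 libraries. The treated groups received acriflavine, an antiseptic acridine dye, at 2.5 µM or 5 µM for 24 h. The control group is labelled untreated, and the treatment protocol names a DMSO vehicle for cultures without drug. The sample descriptions name HepG2S1, a derivative of HepG2 made resistant to the kinase inhibitor sorafenib by long exposure, for all groups, so the controls share that background. The design text calls the 4 libraries of a group biological replicates, but how the cultures were separated is not stated, so the spread measured here may be partly technical. All 12 libraries come from 1 cell line.

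Pseudouridine is an isomer of uridine in which the base is joined to the sugar through a carbon atom, and the extra hydrogen bond donor stiffens the RNA backbone. It is abundant in tRNA, rRNA and spliceosomal RNA and also occurs in mRNA. Standalone synthases recognise their target by its sequence and fold, while the dyskerin enzyme DKC1 is directed by box H/ACA guide RNAs. By protein family, PUS1 and PUS3 belong to the TruA group, TRUB1 and TRUB2 to TruB, PUS7 and PUS7L to TruD, and RPUSD1, RPUSD2 and RPUSD4 to RluA, while PUS10 stands in a family of its own.

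The libraries held 10733567 to 15116842 counts. Replicates differed by more than counting noise, with a chi-square per degree of freedom of 1.66 to 5.41 over 18 replicate pairs. Markers of hepatocytes were near 0: ALB and AFP had 0 counts in every control library, and the summed level of 8 such products was 0.879 to 1.69 CPM (a library's counts scaled to a common total) in controls, between 0.915 and 2.02 at 2.5 µM and between 3.56 and 6.45 at 5 µM. ALB and AFP are products for which HepG2 is known, so the controls lack defining markers of the labelled line. The summed level of 8 markers of fibroblasts, endothelium and blood was 21.9 to 30.3 CPM in controls, between 26.3 and 32.2 at 2.5 µM and between 46.6 and 54.1 at 5 µM. The fibroblast genes COL1A1 (22.6 CPM in controls, 30.9 at 5 µM) and PDGFRB (4.51 and 16.4 CPM) made up most of that sum. Of the other 6, PECAM1 was at 0 in all 12 libraries and COL1A2, CDH5, CD68 and HBB had 7 counts or fewer in any group, while PTPRC had 2 counts in all controls and 119 at 5 µM. The 2 mitochondrial rRNAs took 0.872 to 1.18% of counts in controls, between 1.95 and 2.63% at 2.5 µM and between 2.10 and 2.57% at 5 µM. These levels moved with treatment, and their part in the members' differences was not tested. In bulk RNA, fewer cells of a type and less RNA per cell cannot be told apart.

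The synthases moved in both directions. At 5 µM against control, 3 of 10 rose (TRUB2, RPUSD2, TRUB1), 6 fell (PUS7, PUS3, PUS7L, RPUSD1, PUS10, RPUSD4) and PUS1 did not pass. A gene is said to have risen or fallen where edgeR's quasi-likelihood test, with Benjamini-Hochberg adjustment over all genes tested, gave an adjusted p under 0.05. Among all genes tested, 38.7% rose and 39.4% fell in the same comparison, and nothing is read from the members' counts beside that background. The members' median log2 fold change was -0.25, beside -0.01 for all genes tested. For 8 of 10 members the 4 libraries at 5 µM did not overlap with the 4 controls, which also held for 70.8% of all genes. At 2.5 µM against control, 4 members rose and 5 fell, beside 30.7% and 28.5% of all genes, and 7 did not overlap, beside 50.5%. Between 5 µM and 2.5 µM, 2 rose and 5 fell, beside 33.6% and 34.8% of all genes, and 4 did not overlap, beside 62.1%. The first 2 comparisons share the control libraries.

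**Figure D1:**
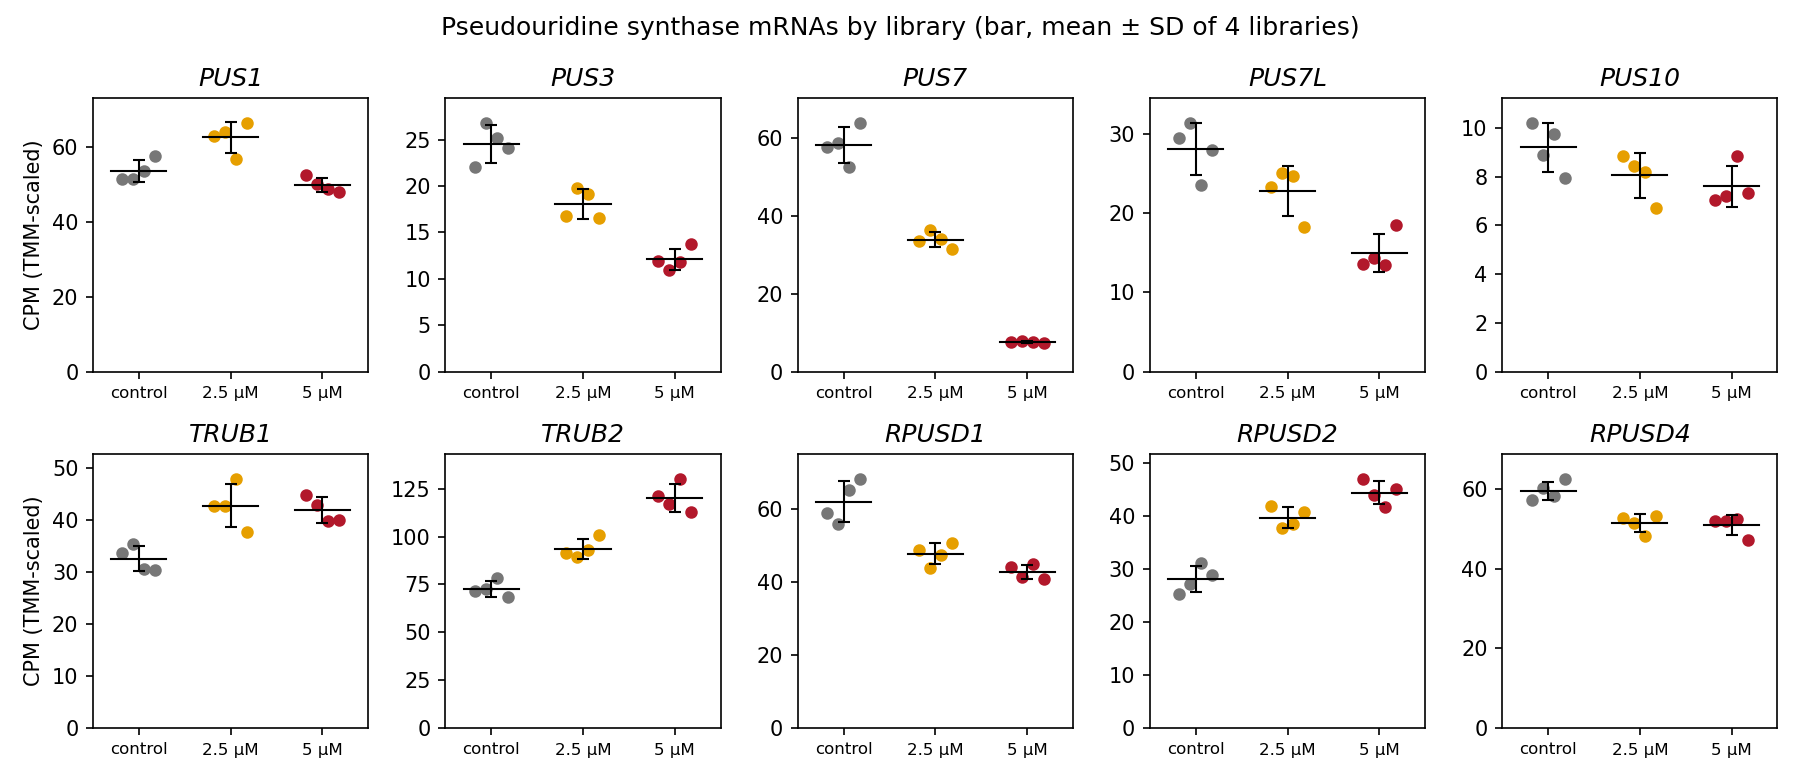
Level of each of the 10 synthases in CPM (y axis, linear, from 0, a scale of its own in each panel) in control, 2.5 µM and 5 µM acriflavine (x axis); points are the 4 libraries of a group, the long bar is their mean and the whiskers their SD. PUS7 falls from 58.1 to 7.65 CPM between control and 5 µM, while TRUB2 climbs from 72.7 to 121 CPM.

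PUS7 (ENSG00000091127, chromosome 7) had the largest change of the 10 members. It is the TruD enzyme that modifies tRNAs, small nuclear RNA and many mRNAs at a short sequence motif. Its level was 57.6, 58.7, 52.4 and 63.8 CPM in the 4 controls. At 2.5 µM it was 33.5, 36.4, 34.1 and 31.5 CPM, and at 5 µM it was 7.66, 7.90, 7.62 and 7.44 CPM, from 86 to 119 counts per library. The 3 groups did not overlap, and the lowest control was above every treated library. The log2 fold change against control was -2.93 ± 0.08 (SE; 95% interval -3.10 to -2.76), a 7.60-fold lower level at 5 µM. At 2.5 µM it was -0.78 ± 0.07 (-0.92 to -0.64), and between the doses -2.15 ± 0.09 (-2.32 to -1.97). The step from 2.5 to 5 µM was thus 4.43-fold, against 1.72-fold for the step from control to 2.5 µM.

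PUS7L (ENSG00000129317, chromosome 12), the TruD paralog of PUS7 whose targets are less well known, fell to a smaller extent. Controls held 29.5, 31.4, 23.6 and 28.0 CPM. The libraries at 2.5 µM held 23.3, 25.1, 24.7 and 18.2 CPM, 2 of them above the lowest control and 2 below it. At 5 µM the values were 13.6, 14.3, 13.5 and 18.5 CPM, all below the controls. On the log2 scale the change was -0.90 ± 0.11 (-1.13 to -0.67) at 5 µM, so its interval lay well above that of PUS7. At 2.5 µM it was -0.31 ± 0.11 (-0.53 to -0.09), and this call was lost when control replicate 2 was left out (-0.25). Between the doses it was -0.59 ± 0.11 (-0.82 to -0.36), with 1 library at 5 µM above the lowest at 2.5 µM.

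The stretch upstream of the PUS7 start is shown beside those of RPUSD2 and TRUB1, because PUS7 fell furthest, RPUSD2 and TRUB1 rose, and these 3 members have an upstream window free, or nearly free, of annotated exons. The windows are RefSeq's, on GRCh38.p14, and run 5′ to 3′ on the gene's strand up to the start, except that the last 2 bases before the TRUB1 start lie in an annotated exon and are not printed. Capitals mark the GC box, GGGCGG on either strand. PUS7 is at chr7:105522272-105522521 on the minus strand, RPUSD2 at chr15:40569049-40569298 on the plus strand, and TRUB1 at chr10:114937945-114938192 on the plus strand.
PUS7: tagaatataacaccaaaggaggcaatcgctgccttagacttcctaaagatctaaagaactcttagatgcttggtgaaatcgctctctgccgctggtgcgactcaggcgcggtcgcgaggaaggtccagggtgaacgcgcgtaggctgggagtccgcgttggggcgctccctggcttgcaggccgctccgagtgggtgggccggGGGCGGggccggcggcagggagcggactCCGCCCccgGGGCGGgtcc
RPUSD2: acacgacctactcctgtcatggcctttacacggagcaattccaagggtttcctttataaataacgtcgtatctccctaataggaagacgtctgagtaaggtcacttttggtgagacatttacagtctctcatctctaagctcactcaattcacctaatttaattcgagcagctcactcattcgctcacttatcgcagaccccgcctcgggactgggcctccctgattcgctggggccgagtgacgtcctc
TRUB1: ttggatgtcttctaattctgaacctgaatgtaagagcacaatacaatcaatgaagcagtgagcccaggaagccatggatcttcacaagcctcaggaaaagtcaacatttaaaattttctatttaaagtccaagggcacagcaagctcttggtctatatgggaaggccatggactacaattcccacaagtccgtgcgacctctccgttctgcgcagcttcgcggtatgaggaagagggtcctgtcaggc
Over the full windows of 250 bases, that of PUS7 is 65.2% G and C with 24 CpG pairs and 3 GC boxes. RPUSD2 has 49.2% and 13 CpG pairs, and TRUB1 47.2% and 7, both without a GC box. Over 35116 RefSeq windows of that length, the median was 58% and 11 CpG pairs, and 42.6% held at least 1 GC box. RefSeq windows were found for 8 of 10 members (all but PUS1 and PUS7L). A GC box was present in 6 of their 12 windows, beside 42.6% of all windows. By member, 5 of these 8 held it in any window: PUS7, PUS3, RPUSD1 and PUS10, which fell at 5 µM, and TRUB2, which rose. No share per gene was computed beside this count, and a gene with several windows has more chances to hold a GC box. RPUSD4, which fell, held none, like RPUSD2 and TRUB1, which rose. RPUSD4 alone among the 8 held the E-box CACGTG, which is present in 6.34% of all windows, with 3 matches. All 3 lie in annotated exon bases. CCAAT, present in 32% of windows, was found for RPUSD1 and PUS10, in windows wholly within annotated exons. TGATGNAA (3.14% of windows) and the palindromic NRF1 core (1.03%) were found for none of the 8. Apart from the 3 windows shown, those of the members lie mostly or wholly in annotated exons (169 to 250 of 250 bases). Both strands were searched, and a match is a description of the sequence only.

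Of the TruA enzymes, PUS3 fell at both doses, while PUS1 rose at 2.5 µM and did not pass at 5 µM. PUS3 (ENSG00000110060, chromosome 11) modifies the anticodon stem of many tRNAs. It was at 22.0, 26.8, 25.2 and 24.1 CPM in controls, 16.8, 19.8, 19.1 and 16.5 CPM at 2.5 µM, and 11.9, 11.0, 11.8 and 13.7 CPM at 5 µM. The 3 groups followed dose without overlap. Against control, PUS3 had a log2 fold change of -1.01 ± 0.09 (-1.20 to -0.82) at 5 µM, a 2.01-fold lower level, and of -0.44 ± 0.09 (-0.62 to -0.27) at 2.5 µM. Between the doses it was -0.57 ± 0.09 (-0.76 to -0.38).

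PUS1 (ENSG00000177192, chromosome 12) modifies cytoplasmic and mitochondrial tRNAs as well as mRNAs, and its inherited loss causes a myopathy with sideroblastic anaemia. Its controls were at 51.4, 51.4, 53.5 and 57.5 CPM. At 2.5 µM it was at 62.8, 64.0, 56.6 and 66.3 CPM, higher than every control in 3 of 4 libraries, with the lowest library below the highest control. At 5 µM it was at 52.4, 50.1, 48.6 and 48.0 CPM, where 1 library overlapped with the controls. PUS1 rose by 0.23 ± 0.06 (0.10 to 0.35) on the log2 scale at 2.5 µM. At 5 µM the difference from control was -0.10 ± 0.06 (-0.23 to 0.02), which did not pass. The fall between the doses was -0.33 ± 0.06 (-0.45 to -0.21), with no overlap.

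Both TruB enzymes rose. TRUB2 (ENSG00000167112, chromosome 9) acts in mitochondria, on mitochondrial mRNA and together with the module that serves the large mitochondrial rRNA. It was at 71.5, 72.6, 78.4 and 68.2 CPM in controls, 91.4, 89.1, 92.9 and 101 CPM at 2.5 µM, and 121, 117, 130 and 113 CPM at 5 µM. Each dose lay above the one before it without overlap. TRUB2 rose on the log2 scale by 0.73 ± 0.06 (0.62 to 0.84) at 5 µM, a 1.66-fold higher level, 0.37 ± 0.06 (0.25 to 0.48) at 2.5 µM, and 0.36 ± 0.05 (0.25 to 0.47) between the doses.

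TRUB1 (ENSG00000165832, chromosome 10), which modifies the T-loop of tRNAs and hairpins in mRNA, rose at both doses. Controls held 33.7, 35.4, 30.6 and 30.4 CPM, the libraries at 2.5 µM 42.7, 42.6, 47.8 and 37.6 CPM, and those at 5 µM 44.8, 42.9, 39.7 and 39.9 CPM. All treated libraries were above all controls, and the dose groups overlapped with each other. The log2 fold change was 0.39 ± 0.07 (0.24 to 0.53) at 2.5 µM and 0.36 ± 0.07 (0.21 to 0.51) at 5 µM. Between the doses it was -0.03 ± 0.07, and the interval of -0.17 to 0.12 bounds any difference between them.

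The RluA enzymes split, with RPUSD2 higher and RPUSD1 and RPUSD4 lower. RPUSD2 (ENSG00000166133, chromosome 15) was at 25.3, 27.1, 31.1 and 28.9 CPM in controls, 41.8, 37.6, 38.5 and 40.7 CPM at 2.5 µM, and 46.9, 43.9, 41.6 and 45.1 CPM at 5 µM. Every treated library was above every control, and 1 library at 5 µM lay within the range of those at 2.5 µM. RPUSD2 rose on the log2 scale by 0.50 ± 0.07 (0.36 to 0.64) at 2.5 µM and by 0.66 ± 0.07 (0.52 to 0.80) at 5 µM. The further rise between the doses, 0.16 ± 0.07 (0.03 to 0.30), no longer passed when any 1 of 4 libraries was left out (2.5 µM replicates 2 or 3, 5 µM replicates 1 or 4; 0.13 to 0.16).

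RPUSD1 (ENSG00000007376, chromosome 16), another RluA enzyme, was at 58.8, 56.0, 65.2 and 68.2 CPM in controls. It was at 48.7, 43.9, 47.5 and 50.8 CPM at 2.5 µM, and 44.0, 41.4, 44.8 and 40.9 CPM at 5 µM. All treated libraries were below all controls, and the dose groups overlapped. Its log2 fold change was -0.38 ± 0.07 (-0.51 to -0.24) at 2.5 µM and -0.54 ± 0.07 (-0.67 to -0.40) at 5 µM. A further fall between the doses, -0.16 ± 0.07 (-0.29 to -0.02), was lost without any 1 of 4 libraries (2.5 µM replicates 1 or 4, 5 µM replicates 2 or 4; -0.16 to -0.12).

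RPUSD4 (ENSG00000165526, chromosome 11), which modifies the large mitochondrial rRNA, changed least among the members that fell and whose groups did not overlap. It ranged from 57.3 to 62.5 CPM in controls, 48.2 to 53.2 CPM at 2.5 µM and 47.2 to 52.6 CPM at 5 µM. Against control, the log2 fold change was -0.21 ± 0.06 (-0.33 to -0.09) at 2.5 µM and -0.23 ± 0.06 (-0.35 to -0.11) at 5 µM. Libraries of both doses overlapped, with a difference of -0.02 ± 0.06 (-0.14 to 0.10) between them. Scaling by library size alone, which moved the median of all genes at 5 µM from -0.01 to 0.12, took the RPUSD4 change at 5 µM to -0.09, which did not pass.

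PUS10 (ENSG00000162927, chromosome 2), which acts on the T-loop of tRNAs and has a further role in processing of miRNA precursors, had the fewest counts of the 10 members. It ranged from 7.95 to 10.2 CPM in controls, 6.72 to 8.86 CPM at 2.5 µM and 7.04 to 8.86 CPM at 5 µM, with overlap in every comparison. Its log2 fold change of -0.27 ± 0.12 (-0.51 to -0.03) at 5 µM passed, but was lost in 10 of 20 alternative settings. The settings that kept it include every fit that left out a 2.5 µM library, though that comparison holds none. At 2.5 µM the log2 fold change was -0.19 ± 0.12 (-0.43 to 0.04), and between the doses -0.07 (-0.31 to 0.17). These levels rest on 79 to 130 counts in each of the 12 libraries.

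**Figure D2:**
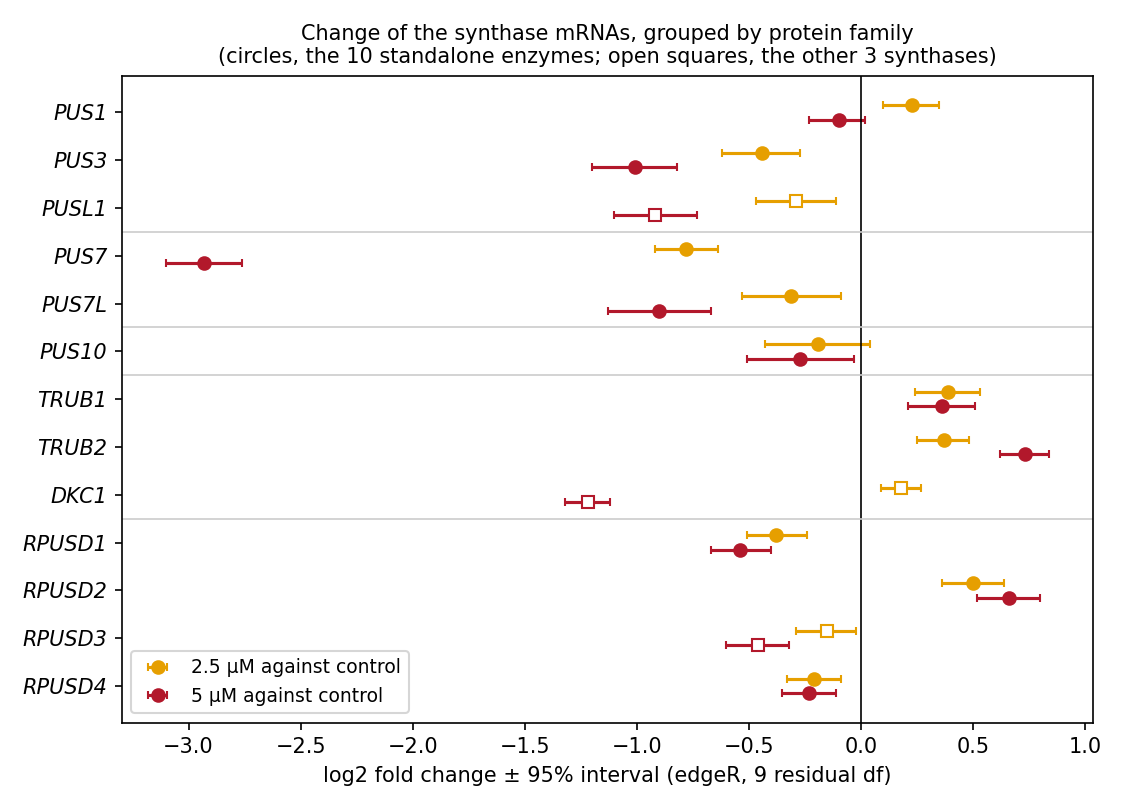
Log2 fold change against control (x axis) at 2.5 µM and 5 µM for the 10 synthases (circles) and 3 further synthases (open squares), grouped by protein family, with bars for the 95% interval of edgeR's fit. Among the circles, PUS7 lies alone at -2.93 for 5 µM against control, the other members at 5 µM lie between -1.01 and 0.73, and TRUB2 and RPUSD2 lie furthest to the right at 0.73 and 0.66.

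The members reached their values by different steps. Of the log2 change at 5 µM, 26.7% was present at 2.5 µM for PUS7, 34.4% for PUS7L, 43.9% for PUS3 and 50.1% for TRUB2. For RPUSD1, RPUSD2 and RPUSD4 it was 70.3%, 75.6% and 93.2%, while PUS10 had 72.6% and TRUB1 108%. The share of PUS10 rests on a value at 2.5 µM that did not pass (-0.19, -0.43 to 0.04). These 9 members, which passed at 5 µM, thus ranged from a change mostly between the doses (PUS7) to one nearly or wholly present at the lower dose (RPUSD4, TRUB1). PUS1 is left out of this range, since its value at 5 µM did not pass and lay on the other side of control from that at 2.5 µM. Both differences share the controls, so these shares carry a common error and are given as descriptions.

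Divided by the summed exon length in kb, to compare levels between genes, RPUSD1 was highest in controls at 22.4 ± 2.03 CPM per kb (SD, n = 4), 20.9% of the summed level of the 10 members. RPUSD4 (14.6), PUS7 (13.1), PUS3 (12.2), TRUB2 (11.9) and RPUSD2 (11.3 CPM per kb) followed, each overlapping with its neighbour in the order. PUS1 (9.32) and TRUB1 (9.03 CPM per kb) also overlapped, and PUS7L (2.01) and PUS10 (1.20 CPM per kb) were lowest. At 2.5 µM RPUSD1 (17.2 CPM per kb) was still first, ahead of RPUSD2 and TRUB2 (15.3 CPM per kb). There RPUSD1 overlapped with RPUSD2, and RPUSD2 with TRUB2. At 5 µM TRUB2 was first with 19.7 ± 1.20 CPM per kb (20.6%) and RPUSD2 next with 17.9 CPM per kb (18.7%). Their libraries overlapped (18.5 to 21.3 against 16.8 to 18.9 CPM per kb). PUS7 moved from the third place to the eighth, at 1.73 ± 0.0432 CPM per kb, and its share of the family went from 12.3% in controls over 7.43% at 2.5 µM to 1.81% at 5 µM. The summed level of the family was 107 ± 3.27 CPM per kb in controls, 103 ± 0.846 at 2.5 µM and 95.6 ± 2.28 at 5 µM. The order depends on the length used: with the median length of coding transcripts, PUS1 was first in all 3 groups, and the share of PUS7 was 10.3% in controls and 1.61% at 5 µM.

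The 3 synthases that the rule does not list all fell at 5 µM. DKC1, the catalytic subunit of the RNA-guided enzyme and also a part of telomerase, was at 209 ± 9.38 CPM in controls, 237 ± 3.59 at 2.5 µM and 89.8 ± 3.93 at 5 µM (SD, n = 4). It rose by 0.18 ± 0.04 on the log2 scale at 2.5 µM (edgeR adjusted p = 9.58e-04) and fell by 1.22 at 5 µM (adjusted p = 9.40e-22). PUSL1, a TruA relative of PUS1, was at 29.3 ± 2.73 CPM in controls and 15.5 ± 0.956 CPM at 5 µM, with a log2 fold change of -0.92 ± 0.09 (edgeR adjusted p = 6.77e-11). RPUSD3, the mitochondrial relative of RPUSD4, was at 44.0 ± 3.26 CPM in controls and 32.1 ± 1.48 CPM at 5 µM, a difference of -0.46 ± 0.07 on the log2 scale. Over all 13 synthases, 3 rose and 9 fell at 5 µM against control, beside 38.7% and 39.4% of all genes. At 2.5 µM 5 rose and 7 fell (30.7% and 28.5% of all genes), and between the doses 2 rose and 8 fell (33.6% and 34.8%). The 7 at 2.5 µM include RPUSD3, whose call was lost in 9 of 20 alternative settings. DKC1 was thus, like PUS1, higher at 2.5 µM and lower between the doses. At 5 µM the 2 differed, since DKC1 was below control and PUS1 did not pass.

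The core proteins of the box H/ACA particle, DKC1, NHP2, GAR1 and NOP10, all fell at 5 µM, while its assembly proteins moved in both directions. Of 8 core and assembly proteins, 5 fell (DKC1, NHP2, GAR1, NOP10, RUVBL1), 2 rose (SHQ1, RUVBL2) and NAF1 did not pass, beside 39.4% and 38.7% of all genes that fell and rose. The median was -0.31, beside -0.01 for all genes tested. The core proteins NHP2, GAR1 and NOP10 changed by -0.83, -0.56 and -0.42, while SHQ1, the chaperone of free DKC1, rose by 0.76 from 31.6 to 53.5 CPM. The RUVBL1 call was lost with library size alone (-0.06). The value for NAF1, an assembly factor, was -0.19 (edgeR adjusted p = 0.0506). It passed in 6 of the 12 fits that left out 1 library, for example without control replicate 3 (edgeR adjusted p = 0.00606). These 6 include every fit that left out a 2.5 µM library, though this comparison holds none. At 2.5 µM 3 of 8 rose and 1 fell, beside 30.7% and 28.5% of all genes, and the rise of RUVBL2 (0.16) was lost without control replicate 2 (0.10) or 2.5 µM replicate 4 (0.12). Of the box C/D particle, which guides ribose methylation instead, 4 of 4 core proteins fell at 5 µM, beside 39.4% of all genes: NOP56 by 1.19, NOP58 by 0.96, FBL by 0.58 and SNU13 by 0.32 on the log2 scale.

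Within the module that modifies the large mitochondrial rRNA, the members TRUB2 and RPUSD4 went apart. Of 5 module genes found in the table, TRUB2 rose and RPUSD4, RPUSD3, FASTKD2 and NGRN fell at 5 µM, beside 38.7% of all genes that rose and 39.4% that fell. RCC1L was not analysed here. FASTKD2, an RNA-binding partner of the module, was at 50.1 ± 3.41 CPM in controls and 23.9 ± 2.18 CPM at 5 µM (log2 fold change -1.07, edgeR adjusted p = 3.61e-15). NGRN changed by -0.22 at 5 µM, and with library size alone its call and that of RPUSD4 were lost, which leaves 1 that rose and 2 that fell. At 2.5 µM, 1 rose and 3 fell, beside 30.7% and 28.5% of all genes. Of these, the RPUSD3 change of -0.15 (edgeR adjusted p = 0.0457) was lost without any 1 of 5 libraries (control replicates 1 or 3, 2.5 µM replicates 1, 2 or 3, with values of -0.16 to -0.12). That call was also lost with library size alone (-0.11), no filter on low counts, a replicate block (-0.15) and a fit on the 2 groups compared (-0.14). The target rRNA itself, MT-RNR2, was at 10400 ± 1520 CPM in controls, 20800 ± 2560 at 2.5 µM and 17300 ± 1650 at 5 µM. The other mitochondrial rRNA, MT-RNR1, was at 722 ± 70.9, 3030 ± 548 and 4050 ± 552 CPM in the same groups. Both values come from poly-A RNA, so the total level of these rRNAs was not measured. PUDP, a phosphatase of free pseudouridine monophosphate, rose by 0.41 ± 0.09 at 5 µM, from 16.5 to 21.8 CPM.

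Other enzymes that modify tRNA, the main substrate of PUS1, PUS3, PUS10 and TRUB1, moved in both directions. Of 48 such genes, 14 rose, 19 fell and 15 did not pass at 5 µM, beside 38.7% and 39.4% of all genes that rose and fell. Their median was -0.02, beside -0.01 for all genes, and with library size alone 22 rose and 14 fell (median 0.12). At 2.5 µM 21 rose and 13 fell, beside 30.7% and 28.5% of all genes. The largest rises at 5 µM were those of the methyltransferase TRMT44 (1.64 ± 0.08, 11.8 to 36.5 CPM), the demethylase ALKBH1 (1.06 ± 0.08, 16.8 to 35.0 CPM) and the wybutosine enzyme LCMT2 (0.93 ± 0.07, 33.1 to 62.6 CPM). The largest falls were those of the adenosine deaminase subunit ADAT2 (-1.91 ± 0.13, 15.5 to 4.22 CPM), the dihydrouridine synthase DUS1L (-1.61 ± 0.06, 143 to 47.0 CPM) and OSGEP of the KEOPS complex (-1.52 ± 0.10, 21.9 to 7.66 CPM). The log2 change of PUS7, -2.93, was larger than that of any of these.

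**Figure D3:**
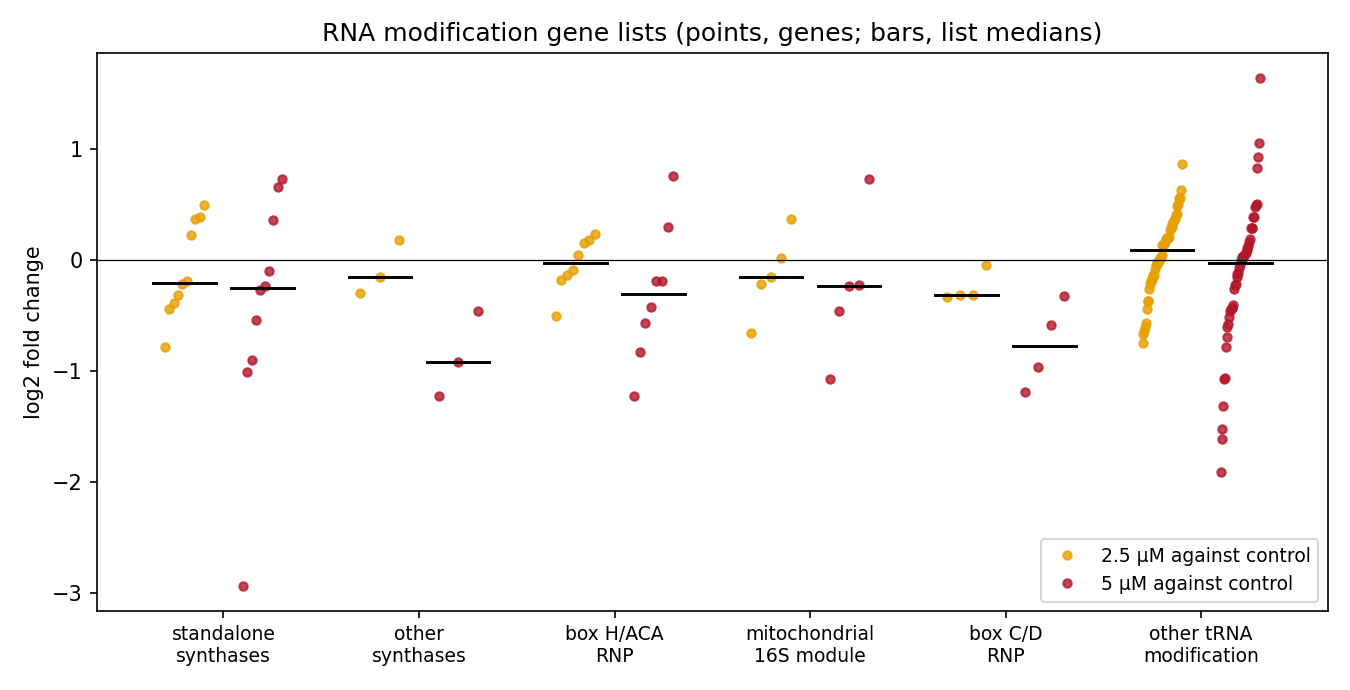
Log2 fold change at 2.5 µM and 5 µM against control (y axis) for the genes of 6 lists (x axis: the 10 synthases, the other synthases, H/ACA proteins, the mitochondrial module, C/D proteins and tRNA modification enzymes), 1 point per gene and a bar for the list's median. At 5 µM all 4 C/D proteins lie below 0, while the 10 synthases and the 48 tRNA modification enzymes lie on both sides. The H/ACA list also holds assembly proteins, while the C/D list holds core proteins only.

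Several members lie head to head with another gene, which bears on what their counts hold. In GENCODE 29, TRUB2 shares 207 exon bases with COQ4, RPUSD1 142 with CHTF18, RPUSD4 243 with FAM118B, PUS1 152 with the long noncoding RNA AC131009.1, and PUS10 293 with the overlapping gene PEX13. This is 2.65% to 5.95% of the member's exon bases. The strand setting of the counting is not given in the sources used here, so reads of a shared stretch cannot be told apart, although the library kit marks strand. PUS7L shares 80 exon bases with AC093012.1, a pseudogene with 0 counts, and PUS3, PUS7, TRUB1 and RPUSD2 share 0 exon bases with another gene.

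These pairs did not all move together. TRUB2 rose while COQ4, an enzyme of coenzyme Q synthesis whose start lies 206 bases away, fell from 53.6 ± 2.69 CPM in the control group down to 26.9 ± 0.533 CPM (log2 fold change -0.99, edgeR adjusted p = 1.06e-15). The log2 ratio of TRUB2 to COQ4 was 0.44 ± 0.08 in controls, 1.35 ± 0.04 at 2.5 µM and 2.16 ± 0.08 at 5 µM (SD, n = 4), without overlap. In the opposite sense, PUS7L fell while IRAK4, a kinase of innate immune signalling 127 bases away, rose by 0.47 (edgeR adjusted p = 2.03e-07), and their ratio went from 0.00 ± 0.11 to -1.38 ± 0.17. At 2.5 µM the IRAK4 change of 0.20 was lost without control replicate 3 (0.14), control replicate 4 (0.17) or 2.5 µM replicate 2 (0.17). RPUSD4 fell while FAM118B rose by 0.57 (edgeR adjusted p = 3.09e-08), with a ratio of 1.28 ± 0.07 in controls and 0.50 ± 0.21 at 5 µM. PUS10 fell while PEX13, a peroxisomal import protein, rose by 0.32. RPUSD1 and CHTF18, a clamp loader subunit, fell together, with CHTF18 falling by 1.11 (edgeR adjusted p = 1.80e-16) and a ratio of -0.09 ± 0.15 in controls, -0.07 ± 0.08 at 2.5 µM and 0.48 ± 0.13 at 5 µM. DDX25, next to PUS3, had 0 counts in all libraries.

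**Figure D4:**
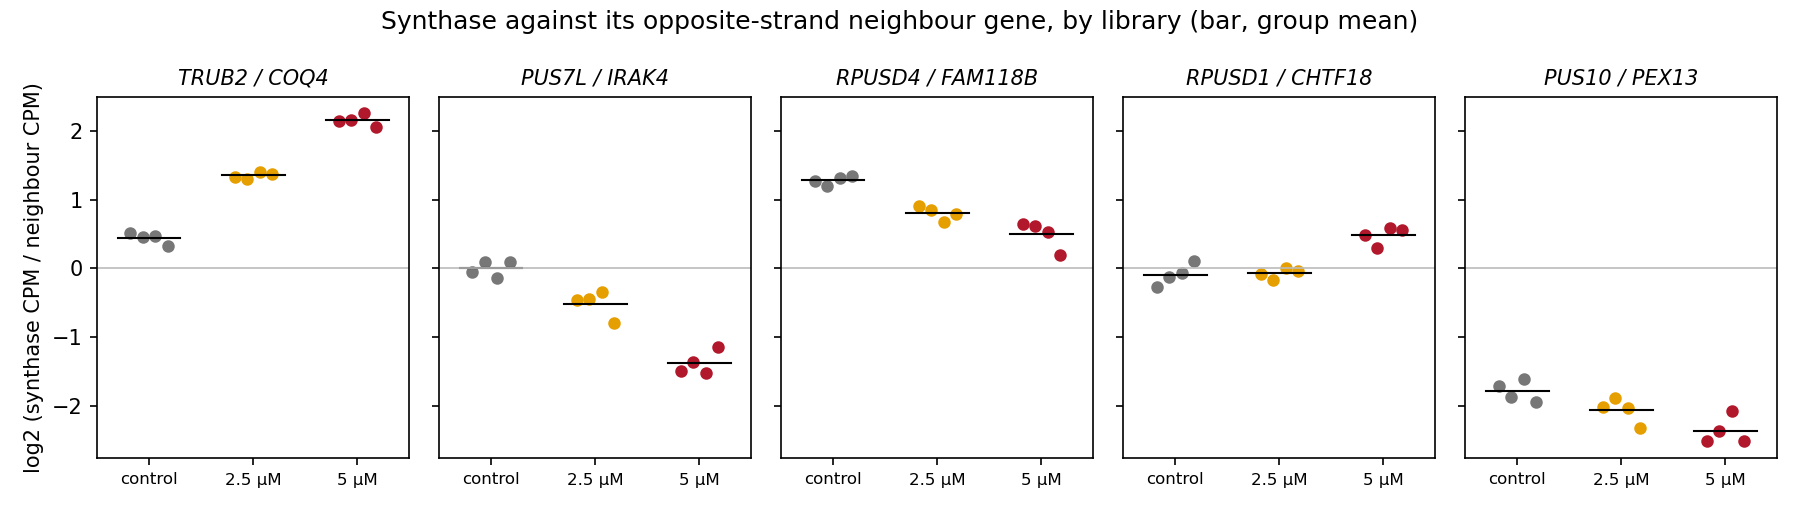
Log2 ratio of a synthase to its opposite-strand neighbour gene (y axis) in control, 2.5 µM and 5 µM (x axis), 1 point per library and a bar for the group mean. The TRUB2 to COQ4 ratio climbs from a mean of 0.44 to 2.16, while the PUS7L to IRAK4 ratio falls from 0.00 to -1.38.

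The genes whose profile over the 12 libraries was most like that of PUS7 were PUM3, RAB27B, MDM4, HSD3B7 and B3GNTL1. The measure was the root mean square difference of centred log2 CPM, which was 0.173, 0.186, 0.192, 0.209 and 0.212 respectively, over 13820 genes compared. Their log2 fold changes at 5 µM were -2.55, -2.93, -2.68, -2.53 and -2.78, beside -2.93 for PUS7. PUM3 encodes a nucleolar RNA-binding protein, RAB27B a small GTPase of secretion, MDM4 an inhibitor of p53, HSD3B7 an enzyme of bile acid synthesis and B3GNTL1 a putative glycosyltransferase. The 5 were picked for this likeness, so their values are a description.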

How the data were processed

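Raw read counts per Ensembl gene were deposited by the authors in a single table, with 0 rows that name no gene. The submitters' processing notes name GRCh37 and, without roles, STAR 2.4.1d and Bowtie2 2.2.4, featureCounts 1.4.6, edgeR 3.8.6, Cufflinks 2.1.1, cutadapt 1.7.1, SAMtools 1.1 and bedtools 2.17.0. Not given in the sources used here are the strand setting, the annotation release and how multiply mapped reads were treated.

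From these counts, edgeR 4.0.16 (R 4.3.3) was run with TMM scaling, filterByExpr and a robust quasi-likelihood fit over all 12 libraries and 3 groups (9 residual degrees of freedom). Benjamini-Hochberg adjustment ran over the 16839 genes tested, with a threshold of 0.05. CPM values use the TMM-scaled library sizes. Library totals were 10733567 to 15116842 counts, and the biological coefficient of variation was 5.43%. The members, the gene lists and the tests were chosen with earlier results of these data known. Named genes were the members, the genes of the lists, the 3 largest rises and falls among tRNA modification enzymes, genes overlapping or head to head with a member (starts within 1 kb), and the 5 genes most like the member that changed most. Symbols, exon lengths and neighbours come from GENCODE 29 (GRCh38) by Ensembl identifier, and gene coordinates are not printed because the builds differ. The fit was tested on simulated data in which a small part of the genes changed, at 5 µM only. Since 13165 of 16839 genes were called at 5 µM against control here, that test does not bear on the scaling. Alternatives were other scalings, no filter, a replicate block, fits on 2 groups, DESeq2 1.42.0, limma 3.58.1 (voom) and leaving out each library. For each comparison, the counts of alternatives include fits that leave out a library of the group not compared. The per-kb share with another gene length was added after the data were seen.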

Additional observations from a re-analysis of the deposited data

Results flagged for a closer look

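Of 30 groups of 4 libraries (10 synthases in 3 groups), 2 held a library far from the other 3, where chance marks about 1 in 20. For PUS10, replicate 3 at 5 µM was at 8.86 CPM and the others at 7.04 to 7.31 CPM. Without it, the PUS10 log2 fold change at 5 µM against control was -0.35 instead of -0.27. For RPUSD4, replicate 4 at 5 µM was at 47.2 CPM and the others at 51.9 to 52.6 CPM. Without it, the RPUSD4 change at 5 µM was -0.19 instead of -0.23, and it still passed.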

How the results depend on the processing

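Over 30 member differences and 20 alternatives each, 559 of 600 values kept their direction and their side of the threshold, 26 no longer passed, and 15 changed sign, all of them differences that passed neither as reported nor in the alternative. With library size alone these were PUS1 at 5 µM against control (0.03) and, between the doses, PUS10 (0.02), TRUB1 (0.06) and RPUSD4 (0.07). Between the doses TRUB1 and RPUSD4 also changed sign with RLE scaling (0.01 and 0.02), upper quartile scaling (0.02 and 0.04) and DESeq2 (0.01 and 0.02), and in 3 (TRUB1) and 2 (RPUSD4) of the fits that left out a library (range over all such fits, TRUB1 -0.09 to 0.02, RPUSD4 -0.05 to 0.03). The count of members that rose between the doses, 2, was 1 with no filter on low counts, and 1 to 2 when a library was left out (RPUSD2 lost). PUS10 at 5 µM against control was lost with RLE scaling (-0.24), upper quartile scaling (-0.22), library size alone (-0.13), a fit on 2 groups (-0.25) and DESeq2 (-0.24), and without control replicates 1 or 3 or 5 µM replicates 1, 2 or 4 (-0.26 to -0.22). The RPUSD1 change between the doses was lost with RLE (-0.12), upper quartile (-0.11), library size alone (-0.07) and DESeq2 (-0.12), and the PUS7L change at 2.5 µM with library size alone (-0.27). The cause was not tested. With another gene length, the PUS7 share of the family moved to 10.3% in controls and 1.61% at 5 µM. The replicate numbers did not pair the libraries (12 same-numbered pairs, r of -0.13 to 0.07, 2 of 12 best with their own number), and with the replicate number as a block 3 members rose and 6 fell at 5 µM, as without it.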

Other observations

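Less abundant transcripts beside the synthases also changed. AC131009.1, a long noncoding RNA on the opposite strand that starts 151 bases from PUS1, had a level of 0.281 ± 0.245 CPM in controls, 1.15 ± 0.276 at 2.5 µM and 3.19 ± 0.427 at 5 µM (SD, n = 4). It shares 152 exon bases with PUS1, and reads of that stretch cannot be told apart here. Its log2 fold change at 5 µM was 3.44 ± 0.33 (edgeR adjusted p = 2.55e-11), from 14 counts in all controls to 166 counts at 5 µM, while the level of PUS1 was 53.4 and 49.8 CPM. HYLS1, a ciliary gene whose body overlaps that of PUS3 on the other strand without a shared exon base, was at 3.68 ± 0.350 CPM in controls, 5.64 ± 0.519 at 2.5 µM and 2.47 ± 0.340 at 5 µM. It rose by 0.61 on the log2 scale at 2.5 µM (edgeR adjusted p = 3.40e-04) and fell by 0.57 at 5 µM (adjusted p = 0.00233), whereas PUS3 fell at both doses. AP001893.1, which overlaps RPUSD4 on the same strand, fell from 1.11 ± 0.182 to 0.430 ± 0.193 CPM at 5 µM, from 55 counts in the controls to 22.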
